A study of Mus musculus with 48 samples.

Results

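The step from day 0 to day 1 in 3T3-L1 cells transfected with a PPARγ siRNA was followed on 6 arrays, 3 biological replicates per day, out of the 48 arrays of the series. The arrays were chosen by siRNA and day alone, and each day 1 array was paired with the day 0 array of the same replicate number. 3T3-L1 cells are an established line of mouse embryo fibroblasts that turn into fat cells when given hormones. The comparison asks how cells with little PPARγ responded to the step.

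All cells had been transfected with 50 nM siRNA by Lipofectamine RNAiMAX and grown to confluence. The PPARγ KD cells received a pool of siRNAs (SMARTpool) against PPARγ, and the control siRNA cells a non-targeting pool. Both were then treated for 48 h with dexamethasone (0.25 µM) and isobutylmethylxanthine (IBMX, 0.5 mM), followed by 48 h of insulin (5 µg/ml) and rosiglitazone (1 µM). Days were counted from the addition of rosiglitazone. Day 0 therefore closed the phase of IBMX and dexamethasone, and day 1 lay 1 day into insulin and rosiglitazone. By this protocol the step is not the first day of the whole cocktail, and it is called here the first day of insulin and rosiglitazone. The withdrawal of IBMX and dexamethasone, the arrival of insulin and rosiglitazone and the fresh medium fell on the same day and cannot be told apart. Rosiglitazone was given to the PPARγ KD cells too. The cells are a single line, the knockdown was transient, and some Pparg transcript was left.

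Dexamethasone activates the glucocorticoid receptor, and IBMX blocks the breakdown of cAMP. Together they induce the early factors C/EBPβ and C/EBPδ, which in turn lead to PPARγ and C/EBPα. Insulin acts through its own receptor and that of IGF1 to drive growth, glucose uptake and lipid synthesis, and rosiglitazone is a ligand of PPARγ. Confluent 3T3-L1 cells re-enter the cell cycle for a few rounds after induction before they fill with lipid.

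Pparg was measured by 3 probes. By the brightest, probe 6130632, the log2 signals of PPARγ KD replicates 1, 2 and 3 were 8.80, 9.11 and 9.46 on day 0 and 8.58, 8.35 and 8.92 on day 1. The control siRNA arrays read 11.39, 11.20 and 11.34 on day 0 and 10.96, 10.79 and 10.88 on day 1. No PPARγ KD array reached a control array on either day. The difference between PPARγ KD and control was −2.19 on day 0 (SE 0.11, adjusted p = 1.4e-16) and −2.26 on day 1 (SE 0.11, adjusted p = 4.7e-17). Between the days Pparg did not pass the test in the PPARγ KD cells, with a log2 difference of −0.51 (SE 0.11, adjusted p = 1). Probe 1990168 was above background on none of the 6 PPARγ KD arrays and on all 6 control arrays, and probe 2680603 on none of these 12.

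Log2 signals here are background-corrected and scaled between arrays, a probe is called where limma's p, Bonferroni adjusted over all 24613 probes, is at most 0.05, and above background means a detection p under 0.01. Between 34.0% and 39.3% of the probes of a PPARγ KD array were above background. Replicate 3 stood apart from replicates 1 and 2 in these arrays, which the pairing takes out of the differences. Of 11 fibroblast and preadipocyte markers, 10 were above background on all 6 arrays and Cd34 on none. The summed log2 level of the list, to which bright members such as Vim add most, ran from 16.90 to 17.11 on day 0 and from 16.82 to 16.93 on day 1, while among the members Pdgfra fell by 1.63, Col1a1 rose by 1.19 and 9 did not pass the test. All 6 adipocyte markers, Adipoq, Plin1, Cidec, Fabp4, Retn and Cfd, were above background on none of the 6 arrays, with a summed log2 level of 7.48 to 8.21 on day 0 and 7.80 to 8.21 on day 1. The same held for 4 of 4 endothelial, 4 of 4 muscle, 5 of 6 macrophage and 4 of 5 osteoblast and chondrocyte markers. In bulk samples a change in the number of cells of a type and a change in RNA per cell cannot be told apart.

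On the first day of insulin and rosiglitazone, 2062 probes of 1843 genes were called in the PPARγ KD cells, 1158 higher and 904 lower, which is 4.7% and 3.67% of all probes. The smooth muscle actins Actg2 and Acta2, 27 of 38 replication genes and 25 of 37 mitosis genes were among those that rose, and Igfbp4, the eosinophil-associated ribonuclease Ear2 and 14 of 25 glucocorticoid response genes among those that fell. Every called probe moved the same way in all 3 pairs, but the pairs are the values that gave the call and no separate support. Remarks below that arrays of called genes did not overlap describe the same values and are no separate support either. Differences were beyond 2-fold for 393 probes higher and 335 lower. The median log2 difference was 0.83 over the higher and −0.88 over the lower probes, against −0.12 over all 24613 probes. Over the 9217 probes above background on at least 24 of the 48 arrays that median was 0.02. Counted by the brightest probe of each gene, 5.21% of 18750 genes were called higher and 4.23% lower, and among the 7725 genes above background on at least 24 arrays 12.3% were higher and 9.36% lower. These shares are the background for the gene lists below, and the median over the 7725 genes was 0.0051. Fewer probes were called with fewer arrays: 962 without replicate 1, 1040 without replicate 2 and 1334 without replicate 3.

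Among probes called and above background on all 6 arrays, the largest rise was that of Actg2, the smooth muscle γ-actin. Its log2 signal was 7.38 on all 3 day 0 arrays and 12.05, 11.98 and 12.06 on day 1, a rise of 4.65 (SE 0.11, adjusted p = 5.3e-28). The arrays of the days did not overlap. Before hormones, on day −2, the mean was 11.64, so that the day 1 level lay near the one before IBMX and dexamethasone. Acta2, the smooth muscle α-actin, read 13.10, 13.19 and 13.04 on day 0 and 15.23, 15.37 and 15.41 on day 1 and rose by 2.23 (SE 0.13), and both of its other probes were called higher too. Its day −2 mean was 15.49.

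Cryab, a small heat shock protein, rose from 10.83, 11.01 and 11.06 to 13.75, 13.61 and 13.89 (log2 difference 2.78, SE 0.07, adjusted p = 3.3e-28). Cpm, the membrane-bound carboxypeptidase M, rose from 7.28, 7.26 and 7.34 to 9.94, 9.93 and 9.68. Slc40a1, the iron exporter ferroportin, rose from 6.73, 6.96 and 7.11 to 9.20, 9.33 and 9.65. In each of these genes the lowest day 1 array lay above the highest day 0 array. Cpm stood at 5.94 on day −2, above background on none of 3 arrays, whereas Cryab (13.42) and Slc40a1 (8.59) had been higher before the hormones than on day 0. Spp1, which encodes the secreted matrix protein osteopontin, gained 2.02 (SE 0.15), but replicate 3 was lower than the others on both days, with 10.74, 11.14 and 9.37 on day 0 and 12.76, 13.05 and 11.50 on day 1. The remaining 6 of the 12 largest rises lay between 1.99 and 3.03. They were LOC630663, Gsta1 (a glutathione transferase), Ccl9 (a chemokine), Tnmd (tenomodulin, of tendon and stromal cells), Rgs4 (a regulator of G protein signalling) and Hoxc13 (a homeobox factor).

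The largest falls were those of the eosinophil-associated ribonucleases. Ear2 read 13.36, 13.55 and 13.997 on day 0 and 9.29, 9.27 and 10.003 on day 1, a log2 difference of −4.12 (SE 0.22, adjusted p = 5.7e-16), and its other 2 probes were also called lower. The probe listed as EAR3 fell by 3.83. These genes are near-identical copies, and the probes may not tell them apart. On day −2 Ear2 had stood at 5.21, above background on none of 3 arrays, so that it was high at the close of the IBMX and dexamethasone phase and had not returned to its starting level after 1 day.

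Igfbp4, a secreted protein that binds IGF, fell from 11.78, 11.88 and 12.29 to 9.28, 9.27 and 9.05 (log2 difference −2.78, SE 0.12, adjusted p = 3.7e-19). Sphk1, a sphingosine kinase, fell from 10.81, 11.15 and 11.21 to 8.54, 8.81 and 8.66 by the probe named, and its other 2 probes were above background on none of the 6 arrays. Tpcn2, an endolysosomal cation channel, fell from 10.82, 10.97 and 11.12 to 8.67, 8.43 and 8.74. The days were clear of each other in all of these. Slc23a2, a vitamin C transporter, fell by 2.43 (SE 0.21), from 11.73, 12.38 and 11.12 to 9.73, 10.05 and 8.17. Kif26b, Krt13, Lcn2 and Rassf2 lay between −2.08 and −2.26, with the other Kif26b probe above background on no array of the step. Mterf4 and Rtraf fell by 2.26 and 2.10 by the probes named, but of the other Mterf4 probes 1 was called higher (0.57), and the other 2 Rtraf probes were not called.

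**Figure D1:**
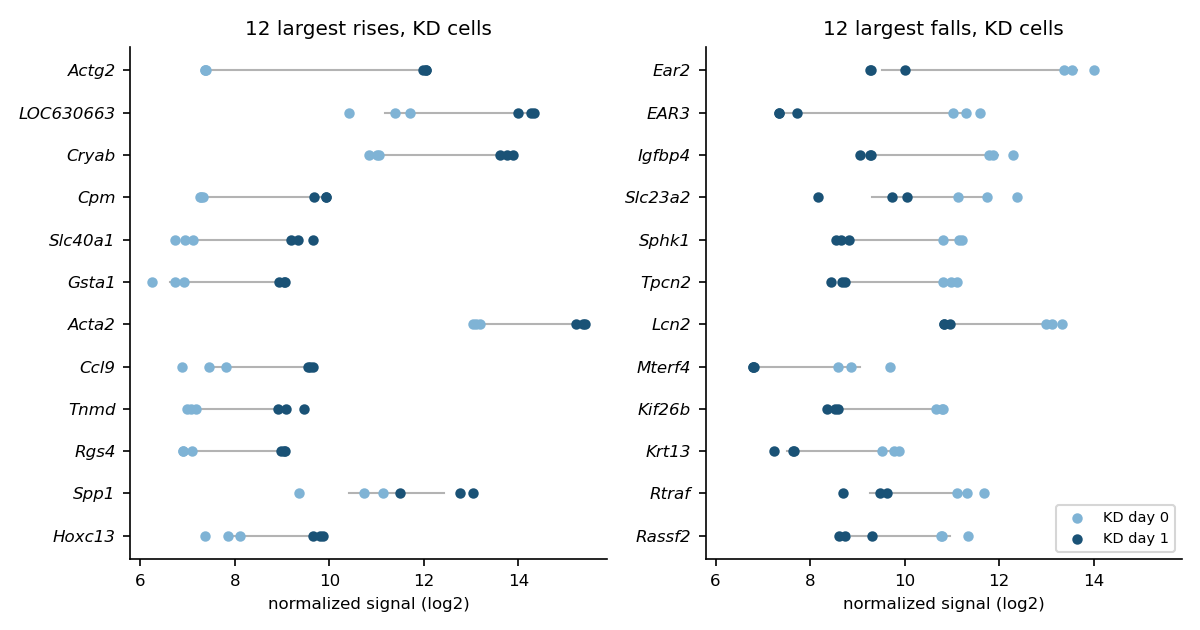
Log2 normalized signal of the 12 genes with the largest rise (left) and the 12 with the largest fall (right) on the first day of insulin and rosiglitazone in the PPARγ KD cells. Each point is 1 array, pale for day 0 and dark for day 1, with 3 arrays per day, and the grey line joins the means; in each gene the 3 day 1 points lie on 1 side of the 3 day 0 points.

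Some genes were above background on all 3 arrays of one day and on none of the other, 73 probes higher and 54 lower among those called, so that only a bound can be given. Mustn1, a small nuclear protein of muscle and skeletal tissue, was at least 9.54-fold higher on day 1, with log2 signals of 9.56, 9.68 and 10.08. Tnnt2, the cardiac troponin T, was at least 7.97-fold higher, at 9.65, 9.59 and 9.31. Gpr176, an orphan G protein-coupled receptor, was at least 6.83-fold higher. Myod1, Myog, Des and Ckm, the muscle markers, were above background on no array of either day, and their summed log2 level ran from 6.79 to 7.36 on day 0 and from 6.95 to 7.21 on day 1. Among the falls, Kera, the matrix proteoglycan keratocan, was at least 4.22-fold lower, with 8.37, 8.81 and 8.52 on day 0. Il31ra, a cytokine receptor, was at least 4.06-fold lower and Bcl2l11, the cell death protein BIM, at least 3.28-fold lower. Each bound sets the bright day against the higher of the probe's own signal and the dimmest signal above background on each dim array.

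Many targets of the first hormones fell. Of 25 glucocorticoid response genes 14 were called lower and none higher, with a median log2 difference of −0.79. Dusp1, a phosphatase of MAP kinases, went from 11.89, 12.19 and 12.21 to 10.59, 10.66 and 10.56 (−1.49, SE 0.09, adjusted p = 8.6e-14). Lcn2, the iron-scavenging lipocalin 2, went from 13.11, 13.32 and 12.99 to 10.84, 10.84 and 10.96 (−2.26, SE 0.14). All of the day 1 arrays were below all of the day 0 arrays for both. Fkbp5, a chaperone of the glucocorticoid receptor and among its best known targets, was chosen after its values were seen. Its mean was 8.44 on day −2, 11.87 on day 0 and 11.07 on day 1, a fall of 0.80 (SE 0.13, adjusted p = 0.0079), so that it was still well above its starting level after 1 day. It read 11.63 on day 2 and 8.98 on day 6. Zfp36 (−1.43), Errfi1 (−1.22), Pdk4 (−1.22), Tsc22d3 (−1.02) and the metallothioneins Mt2 (−0.96) and Mt1 (−0.79) also fell. Without replicate 1, 9 of the 25 were called lower.

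Of 19 cAMP response genes 7 were called lower and none higher, with a median of −0.34, and 8 of them were above background on none of the 6 arrays. Rgs2, a regulator of G protein signalling, went from 8.69, 9.02 and 8.29 to 7.31, 7.65 and 6.73. Pde4d, a phosphodiesterase of cAMP, went from 8.57, 8.78 and 8.78 to 7.06, 7.27 and 7.61, and its other probe was not called. Fos, the immediate early factor, was at least 2.65-fold lower on day 1 (adjusted p = 2.1e-06), when none of its arrays was above background. Junb, which dimerises with it, fell by 1.17 (SE 0.15). Sik1 (−0.91), Cebpb (−1.05) and Pde4b, which was above background on 2 day 0 arrays only, were the others called. In the PPARγ KD the means on day −2 and day 0 were 8.08 and 7.89 for Fos and 9.57 and 9.65 for Junb. These 2 genes were thus not clearly raised at the close of the IBMX and dexamethasone phase. Rgs2 (6.74 and 8.67), Pde4d (6.94 and 8.71), Sik1 (7.59 and 9.23), Cebpb (12.21 and 13.82) and Pde4b (5.16 and 6.62) were higher on day 0. The promoters of Fos and Junb are shown because both genes fell and both hold TGACG, the core of the cAMP response element. They are the 250 bases before the RefSeq start on GRCm38.p6, read along the gene's strand, with TGACG or its complement CGTCA in capitals.
Fos, chr12:85473640-85473889, plus strand: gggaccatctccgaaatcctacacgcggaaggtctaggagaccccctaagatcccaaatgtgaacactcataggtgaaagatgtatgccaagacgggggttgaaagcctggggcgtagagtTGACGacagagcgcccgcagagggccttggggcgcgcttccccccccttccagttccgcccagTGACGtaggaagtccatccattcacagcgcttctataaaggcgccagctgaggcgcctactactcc
Junb, chr8:84978749-84978998, minus strand: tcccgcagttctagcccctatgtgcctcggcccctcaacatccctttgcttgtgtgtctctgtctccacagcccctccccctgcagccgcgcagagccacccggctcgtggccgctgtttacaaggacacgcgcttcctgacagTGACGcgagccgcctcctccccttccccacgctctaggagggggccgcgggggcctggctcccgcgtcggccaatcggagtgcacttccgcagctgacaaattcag
Searched on both strands, TGACG was in the window of 13 of the 16 list members with a RefSeq promoter, which is 81.2%, and in 19.8% of all 27025 genes with one. The glucocorticoid-type letters ACANNNTGT were in 4 of 20 matched members of the glucocorticoid list and in 6.76% of all genes. Among matched members called lower, TGACG was in 5 of 6 and ACANNNTGT in 2 of 12. A match describes letters and not a bound site. Here and below, the share of a whole list with the letters depends on which genes were put in it and not on the step. Whether these letters go with the step was not tested.

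**Figure D2:**
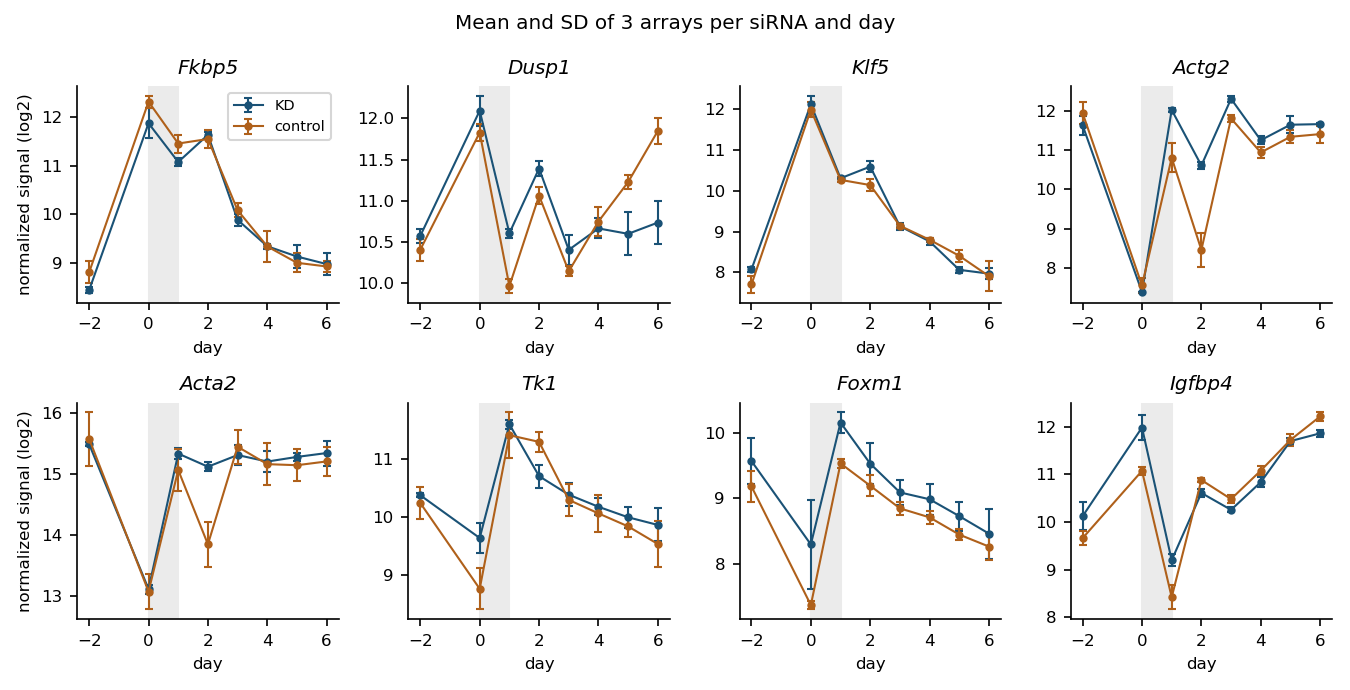
Mean log2 normalized signal with SD of 3 arrays by day for 8 genes, PPARγ KD in blue and control siRNA in orange, with the step from day 0 to day 1 shaded. Fkbp5, Dusp1, Klf5 and Igfbp4 were higher on day 0 than on day −2 and lower on day 1, while Actg2 and Acta2 were lowest on day 0 and in the PPARγ KD near their day −2 level on day 1, and Tk1 and Foxm1 were highest on day 1.

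The day after, the values of some genes moved back in part and those of others did not. On day 2, still within the 48 h of insulin and rosiglitazone, the PPARγ KD mean of Ear2 was 11.98 against 13.64 on day 0 and 9.52 on day 1, that of Dusp1 11.39 against 12.09 and 10.61, and that of Actg2 10.61 against 7.38 and 12.03. In the control siRNA cells day 2 also lay between day 0 and day 1 for these genes, with 11.88 for Ear2, 11.06 for Dusp1 and 8.46 for Actg2. Klf5 (10.59) and Fkbp5 did likewise in the PPARγ KD, and Klf5 did not in the control (10.14 on day 2, 10.27 on day 1). Other genes did not move back in the PPARγ KD. Among them Lcn2 read 10.88 on day 1 and 10.74 on day 2, Cebpb 12.77 and 12.73, and Klf2 9.07 and 9.48. What the course from day 1 to day 2 has to do with the treatments was not tested, and the genes were named after their values were seen.

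Several factors that start adipogenesis fell. Of 19 adipogenic transcription factors 7 were lower and 1 higher (median −0.41), and Cebpb, Cebpd and Klf9 stand in the lists above as well, as Lcn2 does in that of inflammation. Klf5, which acts between C/EBPβ and PPARγ, went from 11.95, 12.06 and 12.35 to 10.32, 10.32 and 10.28 (−1.81, SE 0.12, adjusted p = 1.7e-12). Cebpb went from 13.80, 13.82 and 13.82 to 12.81, 12.75 and 12.73 (−1.05, SE 0.08). The spread between arrays was small beside both falls. Cebpd (−0.72), Ebf1 (−0.92), Rxra (−0.79), which encodes the partner of PPARγ, Klf9 (−0.61) and Xbp1 (−0.65) fell too. Nr1h3, the oxysterol receptor LXRα, was at least 1.12-fold higher. Cebpa was above background on none of the 6 PPARγ KD arrays.

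Among 19 preadipocyte factors 3 fell and 1 rose (median −0.12). Over all genes above background on at least 24 arrays 9.36% fell and 12.3% rose, and these few calls are not read as a result about the list. Klf2, which holds back Pparg in preadipocytes, rose from 7.21, 7.63 and 7.49 to 8.98, 9.06 and 9.17 (1.63, SE 0.13). Pdgfra, the PDGF receptor of mesenchymal progenitors, fell from 13.76, 13.80 and 13.63 to 12.11, 12.11 and 12.09 (−1.63, SE 0.12), and Id2, an inhibitor of helix-loop-helix factors, by 1.25. Klf2 had stood at 10.41 on day −2 and Pdgfra at 11.93, so both moved back toward that level. Trib2 (−0.67) was the other fall. Dlk1, the preadipocyte factor Pref-1, stayed bright with a difference of −0.17 (SE 0.09, adjusted p = 1).

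Genes of the cell cycle rose together. Of 38 replication and S phase genes 27 were called higher and none lower, with a median of 0.90, and of 37 mitosis genes 25 were higher and none lower, with a median of 1.09. Tk1, the thymidine kinase of S phase, rose from 9.78, 9.78 and 9.34 to 11.53, 11.60 and 11.68 (1.97, SE 0.14, adjusted p = 4.1e-12). Mcm10, a replication initiation factor, rose from 7.22, 7.32 and 6.90 to 8.50, 8.38 and 8.74. Foxm1, the factor that drives mitotic genes, rose from 8.56, 8.80 and 7.51 to 10.13, 10.32 and 10.01 (1.86, SE 0.15), with replicate 3 the lowest on both days, and Anln, the cytokinesis scaffold anillin, from 11.71, 11.99 and 11.14 to 13.22, 13.17 and 13.15. In all of these day 1 was clear of day 0. The other Foxm1 probe, both other Anln probes and 1 of the other 2 Tk1 probes were above background on none of the 6 arrays and were not called, and the remaining Tk1 probe was called higher. Tk1 (10.37), Foxm1 (9.56) and Anln (12.68) were also above their day 0 level on day −2. Without replicate 1, 16 of the replication genes and 19 of the mitosis genes were called higher.

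The helicase subunits Mcm2 (1.21), Mcm4 (0.62), Mcm5 (1.24), Mcm6 (0.70) and Mcm7 (0.72), the loading factors Cdc6 (1.096) and Cdt1 (1.13), and the nucleotide enzymes Rrm1 (0.80), Rrm2 (1.33) and Tyms (0.96) were among those called. In mitosis, the kinases Plk1 (1.33), Aurka (1.03), Aurkb (1.32) and Cdk1 (1.07), cyclin Ccnb1 (1.15), the checkpoint and exit proteins Bub1b (0.99) and Cdc20 (1.501), and the survival and cytokinesis protein Birc5 rose. Upstream of these, 5 of 17 D cyclins, CDK inhibitors and pocket proteins rose and 2 fell (median −0.0042). Ccnd1, cyclin D1, went from 13.20, 13.11 and 13.06 to 14.31, 14.31 and 14.22 (1.15, SE 0.07, adjusted p = 6.8e-15), and its other 3 probes were also called higher. Ccnd2 gained 0.91, and its call was lost without replicate 1 (adjusted p = 0.93). The inhibitors Cdkn1a (0.82) and Cdkn2d (0.88) and Ccng1 (0.70) rose as well, and Ccng2 fell (−0.90), while Cdkn2b, an inhibitor of CDK4 and CDK6, had a fall of 0.54 that was lost without any of the 3 replicates (adjusted p = 1).

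Mcm5, Cdk1 and Cdc20 are shown as called members whose promoters hold the letters searched. Capitals mark the E2F-type letters TTTNNCGC in Mcm5, and TTTGAA (the cell cycle genes homology region) and CCAAT in Cdk1 and Cdc20. Where the letters lie on the other strand the capitals read as their complement. Windows are as for Fos.
Mcm5, chr8:75109259-75109508, plus strand: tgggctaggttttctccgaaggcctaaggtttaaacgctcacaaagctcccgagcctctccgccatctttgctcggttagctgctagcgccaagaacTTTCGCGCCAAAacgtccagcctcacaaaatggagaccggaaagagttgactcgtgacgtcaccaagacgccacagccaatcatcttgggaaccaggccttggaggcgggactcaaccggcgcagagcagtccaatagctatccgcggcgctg
Cdk1, chr10:69352913-69353162, minus strand: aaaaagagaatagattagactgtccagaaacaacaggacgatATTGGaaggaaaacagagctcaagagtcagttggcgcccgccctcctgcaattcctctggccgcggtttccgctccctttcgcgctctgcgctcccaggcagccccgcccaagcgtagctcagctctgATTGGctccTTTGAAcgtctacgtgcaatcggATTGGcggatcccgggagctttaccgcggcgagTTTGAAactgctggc
Cdc20, chr4:118437344-118437593, minus strand: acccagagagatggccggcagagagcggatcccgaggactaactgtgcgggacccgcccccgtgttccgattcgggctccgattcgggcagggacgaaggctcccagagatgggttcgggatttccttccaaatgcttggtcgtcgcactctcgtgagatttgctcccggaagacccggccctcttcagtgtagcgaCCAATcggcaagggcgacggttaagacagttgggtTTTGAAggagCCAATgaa
TTTNNCGC was in 8 of 31 matched replication genes (25.8%) and in 4.94% of all genes. TTTGAA was in 11 of 31 matched mitosis genes (35.5%) against 18.3% of all, and CCAAT in 26 of 31 (83.9%) against 37.5%. Among matched members called higher, TTTNNCGC was in 6 of 22, TTTGAA in 7 of 20 and CCAAT in 15 of 20. Whether the letters go with the step was not tested. In Cdk1, TTTGAA lay 10 bases before the start at its nearest and in Cdc20 13 bases.

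Of 22 ribosome biogenesis genes, which build the subunits of the ribosome, 11 rose and none fell (median 0.66). Mrto4, a ribosome assembly factor, went from 9.46, 9.55 and 9.19 to 10.39, 10.48 and 10.28 (0.98, SE 0.09), and Nop2, a methyltransferase of ribosomal RNA, from 9.34, 9.67 and 9.003 to 10.42, 10.51 and 10.02 (0.98, SE 0.09). Ncl, Nop56, Ddx21 and Polr1b rose by between 0.68 and 0.91. Without replicate 1 the count was 5 and without replicate 3 it was 7.

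Of 21 ATF4 targets and genes of amino acid supply 9 rose and none fell (median 0.59), and 6 were called higher without replicate 1. Shmt2, the mitochondrial serine hydroxymethyltransferase, went from 9.28, 9.29 and 8.39 to 10.57, 10.59 and 10.20 (1.47, SE 0.11). Trib3, a pseudokinase induced by ATF4, went from 10.74, 10.98 and 9.99 to 11.99, 12.15 and 11.45 (1.29, SE 0.15), and its call was lost without replicate 1 (adjusted p = 0.25). Replicate 3 was the lowest on each day for both, and the pairs agreed in direction. The tRNA synthetases Cars (0.80), Gars (0.63) and Aars (0.86), Psat1 of serine synthesis (0.94) and the translation repressor Eif4ebp1 (0.77) rose too. Aars is shown with the amino acid response letters TGATGNAA in capitals, which were in 8 of 19 matched list members (42.1%) and 3.91% of all genes. Among matched members called higher, the letters were in 3 of 7.
Aars, chr8:111033592-111033841, plus strand: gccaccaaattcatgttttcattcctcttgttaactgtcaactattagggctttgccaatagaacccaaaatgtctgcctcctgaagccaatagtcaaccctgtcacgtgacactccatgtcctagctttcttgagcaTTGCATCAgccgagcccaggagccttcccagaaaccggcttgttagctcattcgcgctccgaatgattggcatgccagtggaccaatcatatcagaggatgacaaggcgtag

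Of 23 genes of cholesterol synthesis and uptake 8 rose and none fell (median 0.37). Fdps, the farnesyl diphosphate synthase, went from 12.77, 12.83 and 12.27 to 13.47, 13.53 and 13.42 (0.85, SE 0.10), and Sqle, squalene epoxidase, from 11.95, 12.17 and 11.88 to 12.62, 12.78 and 12.74 (0.72, SE 0.08). Insig1, which retains SREBP in the endoplasmic reticulum, was at least 1.7-fold higher. With 2 replicates the count of 8 became 2 without replicate 1 and 3 without replicate 2 or replicate 3, and Sqle was lost without replicate 1 (adjusted p = 0.11) and without replicate 3 (adjusted p = 0.19).

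Of 23 fatty acid synthesis genes 5 rose and 1 fell (median 0.02). Fads2, a fatty acid desaturase, rose by 0.97 (SE 0.09), from 8.08, 8.07 and 8.33 to 9.03, 9.12 and 9.24. The other rises were in Elovl6 (0.57) and in enzymes of the pentose phosphate pathway, G6pdx (0.71), Pgd (0.59) and Taldo1 (0.50). Fasn, the fatty acid synthase, read 13.33, 13.31 and 12.65 on day 0 and 12.80, 12.84 and 11.97 on day 1, a fall of 0.56. The calls of Fasn and G6pdx were each lost without any 1 replicate, with adjusted p of 0.22 or more. None of 18 genes of glycolysis and glucose uptake was called (median −0.04). Gapdh read 14.60, 14.58 and 14.21 on day 0 and 14.56, 14.55 and 14.21 on day 1, and Tpi1 14.40, 14.35 and 14.16 against 14.62, 14.61 and 14.45 (0.25, SE 0.09, adjusted p = 1).

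**Figure D3:**
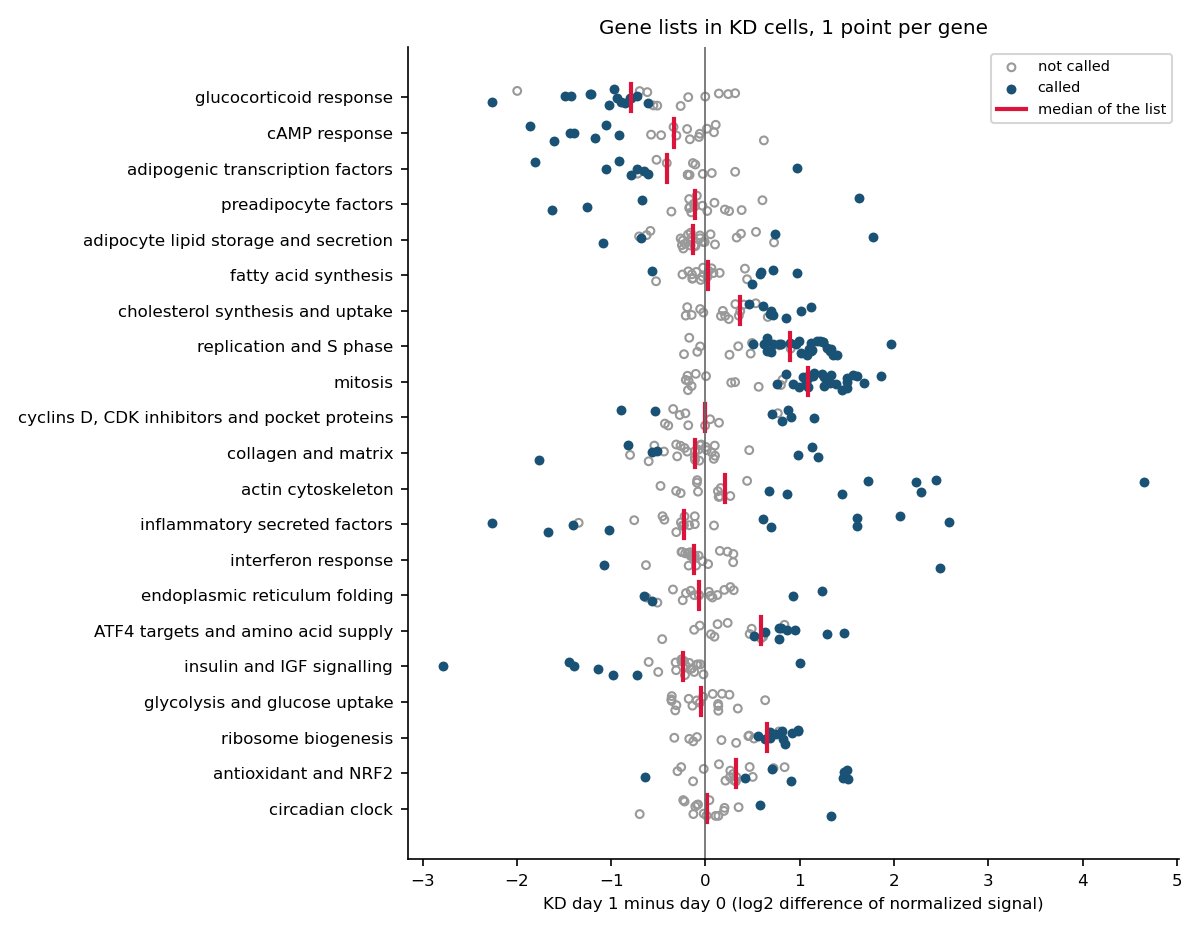
Log2 difference between day 1 and day 0 in the PPARγ KD cells for the genes of 21 lists, 1 point per gene by its brightest probe. Filled points passed the test, open points did not, and the red bar is the median of the list. Replication and mitosis have most of their points to the right of 0 and glucocorticoid response to the left, while glycolysis has no filled point.

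Genes of the actin cytoskeleton were called in 8 of 20, all higher (median 0.21). Beside Actg2 and Acta2 these were Myl9, the light chain of smooth muscle myosin (2.45, SE 0.13), the tropomyosins Tpm2 (1.44) and Tpm1 (0.87), the calponin Cnn2 (0.68), Ccn2, connective tissue growth factor, at least 3.27-fold higher, and Tagln, transgelin, at least 1.15-fold higher. The other 12 genes lay within −0.48 and 0.44, so that the large rises lay in a few genes. Myl9 was above background on 2 of 3 day 0 arrays. Without replicate 2, 5 of the 20 were called. The promoters of Myl9 and Cnn2, called members that hold a CArG box, the site of serum response factor, are shown with the box in capitals.
Myl9, chr2:156775214-156775463, plus strand: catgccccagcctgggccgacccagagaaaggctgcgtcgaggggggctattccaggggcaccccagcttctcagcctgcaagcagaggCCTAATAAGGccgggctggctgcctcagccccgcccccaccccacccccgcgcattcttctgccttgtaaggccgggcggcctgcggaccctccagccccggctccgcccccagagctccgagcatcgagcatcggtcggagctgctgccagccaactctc
Cnn2, chr10:79988350-79988599, plus strand: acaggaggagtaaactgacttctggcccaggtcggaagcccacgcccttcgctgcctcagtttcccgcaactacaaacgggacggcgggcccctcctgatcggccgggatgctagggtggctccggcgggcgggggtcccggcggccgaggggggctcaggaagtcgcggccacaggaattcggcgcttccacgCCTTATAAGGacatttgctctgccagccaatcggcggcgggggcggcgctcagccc
An exact CArG box was in 4 of 16 matched members (25.0%) and 1.62% of all genes. Of the 8 genes called, 5 had a promoter and 2 held the box.

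Of 30 collagen and matrix genes 3 rose and 4 fell (median −0.11), shares near those over all genes above background on at least 24 arrays. Col1a1, of fibrillar type I collagen, rose from 11.59, 11.49 and 12.29 to 12.61, 12.76 and 13.56 (1.19, SE 0.10), with replicate 3 the highest on both days, and Thbs2, thrombospondin 2, from 10.18, 10.39 and 10.52 to 11.46, 11.47 and 11.56. Dpt, the matrix protein dermatopontin, fell from 11.35, 11.48 and 11.05 to 9.47, 9.62 and 9.51 (−1.76, SE 0.14). The basement membrane collagens Col4a1 (−0.82) and Col4a2 (−0.57) fell and Nid1, nidogen 1, of the same layer rose (0.98). The call of Col4a1 was lost without replicate 1 (adjusted p = 0.27).

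Secreted inflammatory factors also split, with 6 of 23 higher and 4 lower (median −0.23). Ccl7, a monocyte chemokine, rose from 10.64, 10.88 and 10.20 to 12.15, 12.25 and 12.13 (1.60, SE 0.10), and Ccl2, of the same kind, by 2.06 (SE 0.20) from a day 0 level that was above background on 1 array. The metalloproteinase Mmp3 was at least 4.05-fold and Mmp9 at least 2.25-fold higher. Ptx3 and Csf1 gained 0.60 and 0.69, of which the call of Csf1 was lost without replicate 1 (adjusted p = 0.93) and without replicate 2 (adjusted p = 0.32). The acute phase genes Lcn2 and Saa3 fell, Saa3 from 8.86, 8.97 and 8.85 to 7.35, 7.27 and 7.05 (−1.67, SE 0.17), with complement C3 (−1.02) and the neutrophil chemokine Cxcl1 (−1.41). Of 20 interferon response genes Ifit2, above background on 2 of 3 day 0 arrays, rose. Psmb9, above background on 2 day 0 arrays and no day 1 array, fell, and 18 were not called. These shares are near those over all 18750 genes, 5.21% higher and 4.23% lower.

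Of 24 insulin and IGF genes 6 fell, 1 rose and 17 were not called (median −0.24), and 10 of the 24 were above background on none of the 6 arrays. Igfbp4 had the largest fall of the list. Igf2r, which clears IGF2 from the surface, went from 12.15, 12.41 and 12.81 to 10.80, 11.00 and 11.38 (−1.40, SE 0.09, adjusted p = 5.3e-13), and Igf1 fell by 0.99. Igfbp5 was at least 1.22-fold lower. The inhibitors of cytokine signalling Socs3 (−1.14) and Socs2 (−0.73) fell, and Igfbp6 rose from 7.03, 6.92 and 7.15 to 8.03, 7.82 and 8.25. The receptors Insr (−0.50, adjusted p = 0.19) and Igf1r (−0.23, adjusted p = 1) did not pass the test, and the probes used for Irs1 and Akt1 were above background on none of the 6 arrays.

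Of 24 antioxidant genes 7 rose and 1 fell (median 0.32). Gclm, of glutathione synthesis, went from 9.69, 9.57 and 9.67 to 11.16, 11.06 and 11.24 (1.51, SE 0.11), and Gstm1, a glutathione transferase, from 10.88, 11.11 and 10.78 to 12.42, 12.49 and 12.36 (1.498, SE 0.09), with its other probe above background on no array of the step. Nqo1 (1.47), Gsta4 (1.46), Hmox1 (0.91), Gpx1 (0.71) and Keap1 (0.41) were the other rises. Sesn1 had a fall of 0.65 whose call was lost without any 1 replicate (adjusted p of 0.22 or more). In the endoplasmic reticulum folding list 2 of 20 rose and 2 fell (median −0.07), shares near those over all genes above background on at least 24 arrays. Herpud1, which acts in the removal of misfolded proteins, rose by 1.24 (SE 0.11). The falls of Xbp1 (−0.65) and Syvn1 (−0.57) were lost without replicate 2 (adjusted p = 1 and 0.52) and without replicate 3 (adjusted p = 0.22 and 1), that of Syvn1 also without replicate 1 (adjusted p = 0.12). Of 17 clock genes 2 rose and none fell (median 0.01), a share of rises near that over the same genes. Dbp rose from 9.10, 9.53 and 9.40 to 10.76, 10.77 and 10.49 (1.33, SE 0.11). Per2 rose by 0.58, which was lost without any 1 replicate (adjusted p of 0.065 or more), and its other probe was not called.

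Most of the step was shared with the control siRNA cells, whose arrays are different ones. There 2231 probes were called, 4.89% of all probes higher and 4.17% lower. In the same direction 1482 probes were called in both, which is 71.9% of those of the PPARγ KD and 66.4% of those of the control, and 2 were called in opposite directions. Over the 9217 probes above background on at least 24 arrays the log2 differences of the steps had a correlation of 0.86 across probes, which are not independent of each other. The median of glucocorticoid response was −0.79 in the PPARγ KD and −0.60 in the control, that of replication 0.90 and 1.04, and that of mitosis 1.09 and 1.53. The medians differed in sign for glycolysis (−0.04 and 0.26), inflammatory factors (−0.23 and 0.03), interferon response (−0.12 and 0.08), endoplasmic reticulum folding (−0.07 and 0.03), the D cyclins and CDK inhibitors (−0.0042 and 0.22) and the adipocyte genes below. Over all 24613 probes the median differed in sign as well, at −0.12 and 0.04. Over the 7725 genes above background on at least 24 arrays it was 0.0051 and −0.015. The differences between these medians were not tested. None of the 38 replication or 37 mitosis genes was called for the difference between the steps.

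That difference, the step in the PPARγ KD minus the step in the control, was called for 121 probes, 66 higher (0.268% of all) and 55 lower (0.223%), of which 83 were above background on all 12 arrays. With 24 probes called without replicate 1, 31 without replicate 2 and 111 without replicate 3, and 19 when these 12 arrays alone were fitted, the count depends on the arrays fitted.

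**Figure D4:**
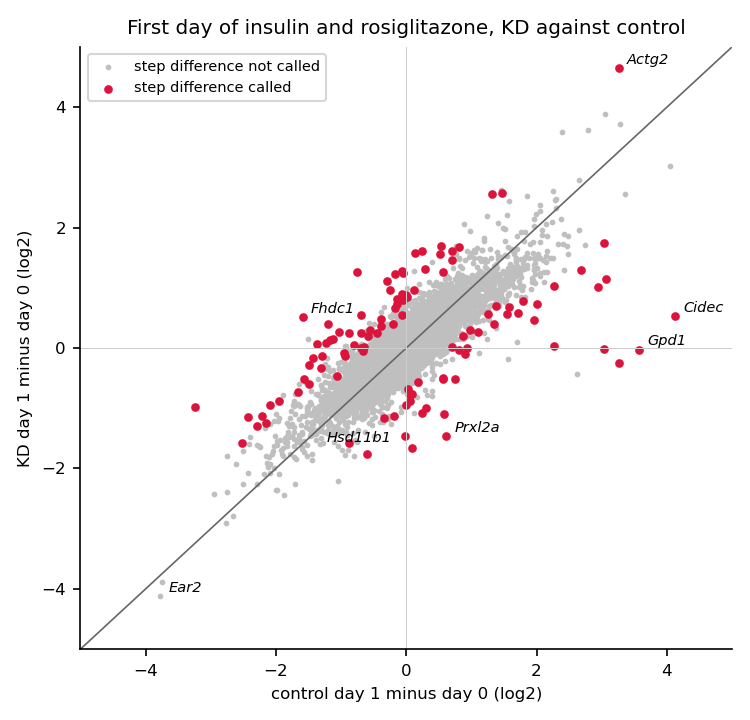
Log2 difference between day 1 and day 0 in the PPARγ KD (vertical) against that in the control siRNA cells (horizontal) for the 9217 probes above background on at least 24 of the 48 arrays. The line marks equal differences, and red points passed the test of the difference between the steps; most points lie along the line, while Gpd1 and Cidec lie far to the right near a PPARγ KD difference of 0.

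Of 28 genes of lipid storage and secretion 2 rose and 2 fell in the PPARγ KD (median −0.13). These shares are near those over all 18750 genes, 5.21% higher and 4.23% lower. In the control 9 were higher and none lower (median 0.61). In the difference between the steps 6 were called lower, against 0.223% of all probes. These 6 were named after their values were seen. Gpd1, the glycerol 3-phosphate dehydrogenase of triglyceride synthesis, read 6.77, 6.78 and 6.54 and then 6.79, 6.56 and 6.67 in the PPARγ KD, and went from 9.40, 9.49 and 9.08 to 12.94, 12.94 and 12.81 in the control. The difference of the steps was −3.60 (SE 0.20, adjusted p = 8.4e-16). Gpd1 was above background on 2 of 3 PPARγ KD arrays on each day, so that this difference is neither exact nor a bound. Cidec, a lipid droplet protein, was above background on no PPARγ KD array of either day and went from 8.73, 8.37 and 7.80 to 12.67, 12.51 and 12.08 in the control. Mrap, BC054059 and Plin1, the droplet coat perilipin, were likewise above background on none of the 6 PPARγ KD arrays, and in the control they were at least 4.56-fold, 4.72-fold and 3.15-fold higher on day 1. All PPARγ KD arrays lay below all control arrays of day 1 in these genes.

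Lipe, the hormone-sensitive lipase, was at least 1.46-fold lower on day 1 in the PPARγ KD, with 7.11, 7.13 and 6.86 on day 0 and no day 1 array above background. In the control it read 7.58, 7.60 and 7.23 and then 8.13, 8.19 and 7.84, which did not pass the test (0.59, adjusted p = 1). The calls within the PPARγ KD were Agpat2, an acyltransferase of triglyceride synthesis, higher by 0.74, Fabp5, a fatty acid binding protein, at least 2.1-fold higher, Dgat1 of triglyceride synthesis, lower by 0.69, and Lipe. The call of Agpat2 was lost without any 1 replicate (adjusted p up to 0.54), and that of Dgat1 without replicate 1 (adjusted p = 0.068) or replicate 3 (adjusted p = 0.155). Without replicate 3, 10 of the 28 were called lower in the difference, and that of Lipe was lost without replicate 1 (adjusted p = 0.076). Adipoq, the secreted adiponectin, was above background on no PPARγ KD array and on all 6 control arrays, and its difference of −1.60 did not pass the test (adjusted p = 0.34). Later it came up in the PPARγ KD too, with a mean of 9.47 on day 2 and 12.45 on day 6, against 13.88 and 15.20 in the control. The summed log2 level of the 6 adipocyte markers in the control ran from 10.19 to 10.92 on day 0 and from 12.79 to 13.44 on day 1.

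**Figure D5:**
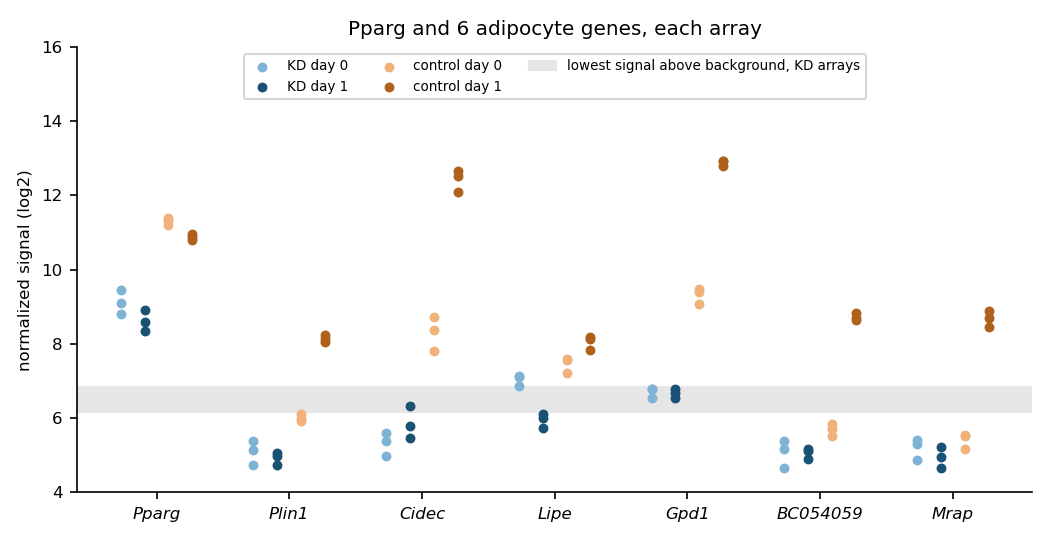
Log2 normalized signal of Pparg and of the 6 adipocyte genes called for the difference between the steps, 1 point per array and 3 arrays per group, PPARγ KD in blue and control siRNA in orange, pale for day 0 and dark for day 1. The grey band spans the dimmest signals above background on the 6 PPARγ KD arrays; Plin1, Cidec, BC054059 and Mrap lie within or below it in the PPARγ KD, while all 3 control arrays of day 1 lie above it in each gene.

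Outside that list, among probes above background on all 12 arrays, the largest differences in favour of the PPARγ KD were led by Fhdc1, a formin-type regulator of actin and microtubules. It rose from 7.62, 7.88 and 7.81 to 8.40, 8.40 and 8.07 in the PPARγ KD, and fell in the control from 9.82, 9.77 and 9.69 to 8.20, 8.11 and 8.19, a difference of 2.11 (SE 0.13, adjusted p = 2.8e-14). The groups differed on day 0 and came together on day 1. Col8a1, a short-chain collagen (1.60), and Mmp11, stromelysin 3 (1.44), fell in the control, by 1.20 and 1.38, and did not pass the test in the PPARγ KD (0.40 and 0.07). Serpina3g, a serine protease inhibitor (1.44), and Rgs3, a regulator of G protein signalling (1.34), rose in the PPARγ KD, by 1.58 and 1.27, while their control values were 0.14 and −0.07. None of the other 7 Rgs3 probes was called. Actg2 rose in both, and more in the PPARγ KD (1.39, SE 0.16, adjusted p = 5.6e-06), with control arrays at 7.44, 7.44 and 7.76 on day 0 and 10.61, 10.58 and 11.24 on day 1. Without replicate 1 the adjusted p of the difference was 0.14 for Actg2, 0.68 for Mmp11 and 0.27 for Serpina3g, and without replicate 2 it was 0.091 for Actg2 and 0.097 for Col8a1.

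On the other side stood Prxl2a, a peroxiredoxin-like protein, which fell in the PPARγ KD from 9.82, 9.97 and 10.02 to 8.47, 8.47 and 8.50 and in the control read 10.99, 10.98 and 10.39 and then 11.51, 11.61 and 11.07, a difference of −2.07 (SE 0.17, adjusted p = 1.7e-10). Hsd11b1, which regenerates active glucocorticoid inside the cell, fell from 9.02, 9.25 and 9.06 to 7.75, 7.49 and 7.70 in the PPARγ KD, with a control difference of −0.01 (difference of the steps −1.45, SE 0.15). Both genes separated the siRNAs further on day 1 than on day 0. Cyp26b1, an enzyme that breaks down retinoic acid, rose in the PPARγ KD by 1.75 and in the control by 3.03, and Aldh1a7, an aldehyde dehydrogenase, by 1.30 and 2.68. Fcor fell in the PPARγ KD by 1.08 against a control value of 0.24 (−1.32), and Capn6, a calpain relative, gave −0.51 against 0.76 (−1.27). Without replicate 1 or replicate 2 the differences of Aldh1a7, Cyp26b1 and Fcor were not called (adjusted p of 0.076 or more). With these 12 arrays alone in the fit, the differences of Col8a1, Serpina3g, Actg2, Rgs3, Hsd11b1, Aldh1a7, Fcor, Cyp26b1 and Capn6 were not called (adjusted p of 0.063 or more).

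In the gene lists, Angptl4, a target of PPARs and of the glucocorticoid receptor that inhibits lipoprotein lipase, fell by 0.94 in the PPARγ KD and gave −0.01 in the control (difference −0.93, adjusted p = 0.041), the only glucocorticoid response gene called for the difference. Nupr1, of the ATF4 list, rose by less in the PPARγ KD (0.78) than in the control (1.80), and Gsta4, of the antioxidant list, by more (1.46 against 0.70). Srxn1, of the same list, had a difference of −0.67. Of 23 inflammatory secreted factors 3 were called higher in the difference, against 0.268% of all probes. Mmp3 was among them, but was above background on no day 0 array of either siRNA. Each of its steps is thus only a bound, at least 4.05-fold in the PPARγ KD and at least 1.51-fold in the control. The matrix genes Tnc and Fbn1 had differences of 1.32 and 0.90, with values in the PPARγ KD of 0.09 and −0.60 that did not pass the test and in the control of −1.23 and −1.50. These genes were named after their values were seen.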

How the data were processed

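Signals of the 48 Illumina MouseRef-8 v1.1 arrays were used as deposited. Per the file headers, the authors summarised bead intensity with BeadStudio 3.3.7 without normalization, and the detection value is the fraction 1 minus the detection p-value. The methods name rank-invariant scaling and an ANOVA step against batches, neither of which is in these intensities.

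The detection p-values served for normexp background correction at an offset of 16 (limma 3.58.1, R 4.3.3). Arrays were scaled on rank-invariant probes, as a stand-in for BeadStudio's routine, by factors of 0.730 to 1.58. Log2 values of all 48 arrays were fitted across all 24613 probes (lmFit, eBayes) with 1 mean for each siRNA on each day, the replicate number blocked, and Bonferroni adjustment over all probes. The steps in PPARγ KD and control and their difference are contrasts of this fit. Only the PPARγ KD step was tested on simulated data. These were drawn from the fit with independent noise, and changes were put only into probes above background on all 48 arrays. The background correction, the control step and the difference of the steps were not tested in this way.

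The numbers pair the arrays: deviations from the group means correlated at 0.66, 0.87 and 0.90 between day 0 and day 1 arrays of the same number. They correlated as strongly between replicates 1 and 2, so the block mainly takes out the offset that the arrays of replicate 3 share. The labels call the replicates independent and biological.

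Probes were named through RefSeq symbols (18343), then unique synonyms (4361), and 1909 kept the file's name. A listed gene is given by its brightest probe. Named genes are the 12 largest rises and falls among probes called and above background on all 6 arrays, the 3 brightest bounds each way, the 2 largest rises and falls of each list (the 2 brightest where none was called) and the 6 largest differences of the steps each way on all 12 arrays. Members and lists were chosen with earlier results of these data known. Promoters are RefSeq's on GRCm38.p6; the files name no build. Alternatives of normalization, background, offset, filter, block, arrays fitted, adjustment and replicates were run. How precise the values are depends on signal over background and on the 3 arrays per group.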

Additional observations from a re-analysis of the deposited data

Results flagged for a closer look

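Each gene below passed limma's test of the difference between the steps, the log2 change from day 0 to day 1 in the PPARγ KD minus that in the control siRNA cells, with Bonferroni adjustment over all probes. The difference was positive for Fhdc1 (2.11), Col8a1 (1.60), Mmp11 (1.44), Serpina3g (1.44), Actg2 (1.39) and Rgs3 (1.34). It was negative for Prxl2a (−2.07), Hsd11b1 (−1.45), Aldh1a7 (−1.38), Fcor (−1.32), Cyp26b1 (−1.28) and Capn6 (−1.27). The sign does not give the order of the levels. Mean Col8a1 on day 0 and day 1 was 8.22 and 8.62 in the PPARγ KD and 10.30 and 9.09 in the control. For Capn6 the means were 12.43 and 11.92 in the PPARγ KD and 10.60 and 11.36 in the control. Of the adipocyte genes, the difference was negative for Gpd1 (−3.60), Cidec (−3.59), Mrap (−3.52), BC054059 (−3.04), Plin1 (−2.29) and Lipe (−1.67). Cidec, Mrap, BC054059 and Plin1 were above background on none of the 6 PPARγ KD arrays, Lipe on no PPARγ KD array of day 1 and Gpd1 on 2 of 3 on each day, so that their fitted differences are neither exact nor bounds. Col8a1, Serpina3g, Actg2, Rgs3, Hsd11b1, Aldh1a7, Fcor, Cyp26b1 and Capn6 were not called when only the 12 arrays compared were fitted, and Col8a1, Aldh1a7, Fcor, Cyp26b1 and Capn6 were not called without the replicate block. Fcor was also not called after quantile normalization or without background correction.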

How the results depend on the processing

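Without the replicate block, 1004 probes were called for the step in the PPARγ KD (582 higher, 422 lower), 1127 for the control step and 42 for the difference of the steps (22 higher, 20 lower). Called members then were 9 lower for glucocorticoid response, 4 lower for cAMP response, 16 higher for replication, 5 for ribosome biogenesis and 4 for cholesterol synthesis. With only the arrays of the groups compared in the fit, the difference was called for 19 probes (4 higher, 15 lower), and 4 cholesterol genes were higher. With Benjamini-Hochberg adjustment at 0.05, counts were 5486 (2715 higher, 2771 lower), 5556 for the control and 621 for the difference (323 higher, 298 lower), with 17 ribosome biogenesis, 14 amino acid and 14 cholesterol genes higher and 13 adipocyte genes lower in the difference.

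Leaving out 1 replicate gave 962 to 1334 probes for the PPARγ KD step (468 to 761 higher, 399 to 573 lower), 1017 to 1593 for the control and 24 to 111 for the difference (10 to 53 higher, 14 to 58 lower). Lists then held 9 to 12 glucocorticoid and 5 to 6 cAMP genes lower, and 16 to 24 replication, 19 to 25 mitosis, 5 to 7 actin, 5 to 8 ribosome biogenesis, 6 to 8 amino acid and 2 to 3 cholesterol genes higher, with 5 to 10 adipocyte genes lower in the difference.

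The counts under quantile normalization, no background correction, an offset of 50, the filter on dim probes and the replicate block separate for each siRNA stayed within 1.5 times those reported, and no probe called in both turned direction. After quantile normalization the median over all probes was −0.01 in place of −0.12. Gapdh, which did not pass the test, changed sign under quantile normalization (0.0039), no background correction (0.049) and an offset of 50 (0.016). Of 76 genes named for the PPARγ KD step 25 changed their call or sign under some alternative, and of 18 named for the difference 11 did. Pparg between PPARγ KD and control kept its call in each. The cause of these changes was not tested. Dim probes limit what signal over background can show.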
